A study of Mus musculus with 6 samples.

Results

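Enteroendocrine hormone genes were followed through the single cells of a mouse ileal crypt data set. The 10 genes, of 32285 in the count matrices, were taken by symbol: Chga, Gcg, Pyy, Cck, Sct, Nts, Gip, Ghrl, Tac1 and Tph1. The data were 6 droplet single-cell RNA libraries of EpCAM-sorted ileal crypt epithelium from sex- and age-matched adult mice on the C57BL/6J background, 3 from Fpr2f/f mice (labelled WT) and 3 from Fpr2VKO mice. Fpr2f/f mice carry floxed Fpr2 alleles without Cre, and Fpr2VKO mice carry the same floxed alleles with Cre under the Villin promoter, which is active in the intestinal epithelium, so that other cells of the mouse keep the gene. Fpr2 encodes a receptor for formyl peptides. No Fpr2 unique molecular identifier (UMI, 1 captured transcript) was present in any barcode of any library, so the matrices could not check the deletion. Fpr2 is among 1940 genes with no UMI anywhere, which also include Neurod1, a transcription factor of enteroendocrine cells, and whether these genes were counted at all was not stated, so the 0 says nothing about the cells.

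Enteroendocrine cells are rare hormone-secreting cells of the gut epithelium that arise from crypt stem cells through a Neurog3-expressing precursor and sense nutrients in the lumen. Peptide hormones are made as precursors, cut by prohormone convertases and stored in granules with chromogranins, while serotonin is made from tryptophan. The classical scheme named 1 cell type for each hormone (L cells for glucagon-like peptide and peptide YY, I cells for cholecystokinin, S cells for secretin, N cells for neurotensin, K cells for Gip, X cells for ghrelin, enterochromaffin cells for serotonin), and mouse intestine is known to hold cells with several hormones.

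A kept cell had at least 1000 UMIs, at least 500 genes and at most 20% mitochondrial UMIs. The libraries held 90142126 to 189516114 UMIs and gave 1868 to 4722 kept cells each, fewer than the study analysed, whose limits were not stated. Of the barcodes that passed the UMI and gene limits, the mitochondrial limit kept 2643 of 12027, 4722 of 13764 and 2836 of 9736 in Fpr2f/f. In Fpr2VKO it kept 2267 of 22872, 2768 of 11596 and 1868 of 13007. Kept cells held 69.0%, 80.2% and 61.8% of each library's Chga UMIs in Fpr2f/f and 47.6%, 65.2% and 42.0% in Fpr2VKO. Enteroendocrine cells were gated with a list of 20 marker genes, among them granule, peptide processing and transcription factor genes. The list held none of the 10 hormone genes, and 19 of its genes had a UMI (all but Neurod1). A gated cell had UMIs of at least 3 list genes and at least 10 list UMIs per 10000. The gate took 616 cells, 347 from Fpr2f/f and 269 from Fpr2VKO libraries, with a median of 12144.5 UMIs against 4798 in the other kept cells. It is a range of a score and not a discrete type, 45 kept cells lay between 5 and 20 list UMIs per 10000, and Chgb gave 79.6% of the list UMIs in it. An Epcam UMI was found in 94.6% to 99.1% of gated cells per library, and the 9-gene immune list reached 1.80 to 12.4 CPM there (UMIs per 1000000 UMIs of the cells summed). No doublet caller was run. Of the kept barcodes, 123 sequences occurred in more than 1 library, and 11 gated cells had a barcode kept elsewhere, none of them gated in both.

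Pyy and Gip lie on chromosome 11, Ghrl and Tac1 on chromosome 6 and Sct and Tph1 on chromosome 7 (GRCm38), and the other 4 genes each on a chromosome of their own. Only Ghrl overlaps other annotated genes, Gm26982 and Gm44033 on the opposite strand (whether counting used strand was not stated in the sources used here). Promoter windows of 150 bases before the start site, from RefSeq on GRCm38.p6, are shown for 6 genes whose detection in the same cell is described below. Capitals mark TGACG or TATAAA on either strand (CGTCA and TTTATA on the other), the core letters of the cAMP response element and of the TATA box. Chga and Tph1 are a pair found in the same cells:

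Chga (chr12:102554791-102554940, plus strand): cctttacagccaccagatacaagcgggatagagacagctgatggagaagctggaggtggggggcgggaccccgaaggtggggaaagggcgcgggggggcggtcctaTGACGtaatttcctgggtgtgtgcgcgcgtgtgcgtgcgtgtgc
Tph1 (chr7:46672538-46672687, minus strand): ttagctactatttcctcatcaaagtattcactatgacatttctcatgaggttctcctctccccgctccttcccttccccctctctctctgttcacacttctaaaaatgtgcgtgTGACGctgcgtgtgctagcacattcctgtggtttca

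Gcg, Pyy and Cck were also found together, and Sct was found both inside and outside the gate:

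Gcg (chr2:62483654-62483803, minus strand): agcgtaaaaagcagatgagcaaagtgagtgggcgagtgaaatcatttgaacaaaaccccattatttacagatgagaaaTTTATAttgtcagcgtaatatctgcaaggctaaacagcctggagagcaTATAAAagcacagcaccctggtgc
Pyy (chr11:102107833-102107982, minus strand): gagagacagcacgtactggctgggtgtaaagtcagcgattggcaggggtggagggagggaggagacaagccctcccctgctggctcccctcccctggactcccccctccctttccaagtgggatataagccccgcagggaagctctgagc
Cck (chr9:121495695-121495844, minus strand): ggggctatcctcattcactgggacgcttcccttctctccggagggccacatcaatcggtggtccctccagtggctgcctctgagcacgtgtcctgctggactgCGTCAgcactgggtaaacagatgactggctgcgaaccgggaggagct
Sct (chr7:141279134-141279283, minus strand): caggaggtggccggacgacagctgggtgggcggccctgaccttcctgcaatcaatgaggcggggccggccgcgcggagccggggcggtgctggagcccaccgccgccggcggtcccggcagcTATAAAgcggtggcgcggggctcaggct

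TGACG stood in the window of 4 of the 10 genes, at -44 to -40 in Chga, -36 to -32 in Tph1, -47 to -43 in Cck and -43 to -39 in Tac1, counted from the start site. A second listed start of Tph1 held it as well. Of 27025 genes with windows of the same length, 15.02% held it (13.3% of 32851 windows). TATAAA stood in Gcg and Sct, 2 of the 10 genes, and in 8.89% of all genes. The match is of letters alone, and the windows of the other genes may hold variants of either motif.

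A gated cell was called positive for a hormone at 3 or more UMIs. Chga, the granule protein chromogranin A, was positive in 399 of 616 gated cells (64.8%), Sct, the precursor of secretin, in 314 (51.0%), Tac1, the precursor of substance P, in 295 (47.9%) and Tph1, the rate-limiting enzyme of serotonin synthesis in the gut, in 232 (37.7%). Cck, the precursor of cholecystokinin, was positive in 147 cells (23.9%), and Ghrl, the precursor of ghrelin, in 71 (11.5%). Gcg, the precursor of glucagon-like peptides, was positive in 56 (9.09%), Gip, the precursor of glucose-dependent insulinotropic polypeptide, in 36 (5.84%), Pyy, the precursor of peptide YY, in 28 (4.55%) and Nts, the precursor of neurotensin, in 6 (0.97%). A positive gated cell was found in every library for 9 genes, and in 3 of the 6 for Nts.

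Hormone transcripts were concentrated in the gate. Gated cells held 94.7% of the Chga UMIs of all kept cells, 94.9% of Pyy, 96.2% of Cck, 96.3% of Tac1, 97.1% of Tph1 and 97.3% of Ghrl, but 62.4% of Sct. Immune cells (316 kept cells with at least 3 immune genes, median 6099 UMIs) should lack the hormones. They also held Paneth-cell transcripts, with Defa22 at 9692, 45871 and 35430 CPM in Fpr2f/f and 5774, 56.4 and 129 CPM in Fpr2VKO, so they were not free of epithelial RNA, and the part of this in their hormone UMIs was not tested. The share of them with at least 1 UMI was 0.63% for Pyy, Nts and Ghrl, 2.85% for Chga, 4.43% for Gcg and 6.65% for Sct (exact 95% interval of the Chga share 1.31% to 5.34%, counting error only), against 76.9% of gated cells for Chga, 13.5% for Gcg and 70.9% for Sct. At 3 or more UMIs, 1 immune cell each was positive for Sct, Tac1 and Tph1 and none for the other 7 genes.

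Few cells carried most transcripts of the rarer hormones. A single cell of Fpr2f/f replicate 2 held 1368 Nts UMIs, 60.7% of the Nts UMIs of all kept cells. A cell of Fpr2f/f replicate 3 held 4983 Ghrl UMIs, 91.0% of that library's total, and a cell of Fpr2VKO replicate 1 held 6013 Gip UMIs, 59.7% of its library's. For Gcg, the cell with 3033 UMIs held 85.2% of the total of Fpr2VKO replicate 1. The top cell of Chga held only 1.79% of the kept UMIs of that gene. For Pyy, the top cell of each library held 45.1% to 80.9% of its Pyy UMIs. The library levels of Nts, Ghrl, Gip, Pyy and Gcg given below thus rested on few cells.

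To compare positivity between genotypes, each gated cell was thinned to 2600 UMIs, which left out 43 Fpr2f/f and 17 Fpr2VKO cells that were shallower and kept 556. The thinned share of Chga-positive cells was 46.8%, 56.9% and 37.2% in Fpr2f/f and 42.7%, 49.1% and 49.4% in Fpr2VKO. Means were 47.0% ± 9.83 and 47.1% ± 3.77 (SD, n = 3 libraries a group), and the groups overlapped. The unthinned means of Chga were 62.6% ± 7.01 and 66.2% ± 7.51.

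Tac1 and Tph1 overlapped between genotypes too. The thinned Tac1 share was 49.2%, 48.6% and 27.3% in Fpr2f/f and 38.6%, 43.2% and 47.5% in Fpr2VKO, where unthinned means were 46.8% and 47.4%. Tph1 was at 29.8%, 36.0% and 16.6% in Fpr2f/f and 30.8%, 31.8% and 24.1% in Fpr2VKO, with unthinned means of 34.9% and 38.1%. Fpr2f/f replicate 3 was the lowest library for Chga, Tac1 and Tph1.

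Of the peptide hormones, Sct was at 27.1%, 35.2% and 16.5% in Fpr2f/f and 26.8%, 37.5% and 23.1% in Fpr2VKO. Cck was at 16.8%, 16.0% and 11.5% in Fpr2f/f and 12.2%, 19.5% and 19.0% in Fpr2VKO, with the higher mean in Fpr2VKO when thinned (16.9% against 14.8%) and the lower when not (21.9% against 24.3%). Pyy was at 5.25% ± 4.02 in Fpr2f/f and 2.93% ± 0.982 in Fpr2VKO, and Fpr2f/f replicate 1, at 0.806%, was the lowest of all libraries. Gcg was at 9.81% ± 4.75 and 8.81% ± 4.58, Ghrl at 9.68% ± 1.78 and 8.21% ± 4.75, Gip at 4.65% ± 2.57 and 5.47% ± 0.516, and Nts at 1.12% ± 0.971 and 0.546% ± 0.946. In the thinned cells, two-sided exact permutation tests over the 6 libraries gave p between 0.4 and 1 for the 10 genes and an adjusted p of 1 for each, with 0.1 the smallest p that 3 against 3 libraries allow. These p-values measure the spread between libraries.

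**Figure D1:**
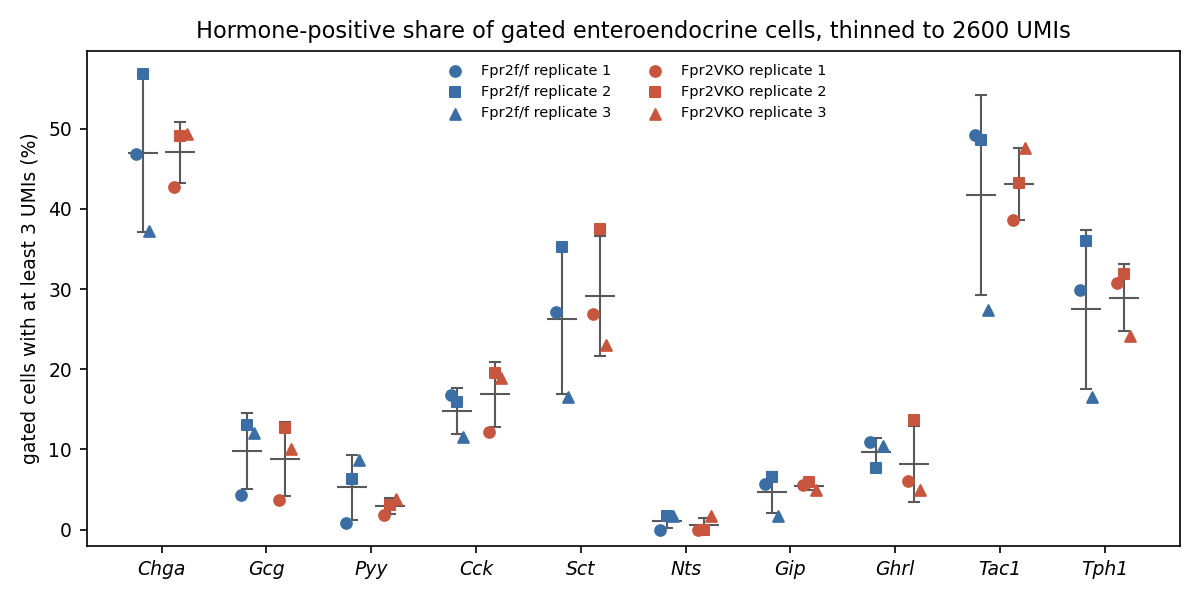
Share of gated enteroendocrine cells with at least 3 UMIs of each hormone gene (y axis, percent) after thinning to 2600 UMIs a cell. Each symbol is 1 library (blue Fpr2f/f, red Fpr2VKO, shape by replicate number), and the grey dash and bars are the group mean and SD (n = 3). The 2 genotypes overlap for all 10 genes.

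The gated cells fell into hormone combinations. Observed numbers of cells positive for 2 hormones were set against those expected if both genes were independent inside each library, as a description over the 45 pairs with no test across cells. Gcg and Pyy, both L-cell hormones, were positive together in 27 cells against 3.32 expected, a ratio of 8.13, above the expected number in 6 of 6 libraries. Fpr2f/f replicate 1 had 1 Pyy-positive gated cell and Fpr2VKO replicate 1 had 2, so in those libraries this rested on 1 or 2 cells. Of the 28 Pyy-positive cells, 96.4% were Gcg-positive, and 48.2% of Gcg-positive cells were Pyy-positive. Cck was positive in 54 of the 56 Gcg-positive cells (13.3 expected) and in 27 of the 28 Pyy-positive cells (6.30 expected). Ghrl joined Gcg in 23 cells against 6.87 expected. Gip and Cck met in 23 cells against 8.75 expected, and all 36 Gip-positive cells were Sct-positive, with 18.9 expected.

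Tac1 and Tph1, which mark serotonin-producing enterochromaffin cells, were positive together in 226 cells against 112 expected, and 97.4% of Tph1-positive cells were Tac1-positive. Chga was positive in 230 of the 232 Tph1-positive cells and in 282 of the 295 Tac1-positive cells. The pair counts of Tac1 and Tph1 were 58, 53 and 16 in Fpr2f/f and 41, 34 and 24 in Fpr2VKO.

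Gcg, Pyy, Gip and Ghrl rarely met Tph1. Gcg and Tph1 were positive together in 1 cell against 20.7 expected, Ghrl and Tph1 in 1 against 26.5, Ghrl and Tac1 in 2 against 33.7, Gip and Tph1 also in 1, and Pyy and Tac1 in 1 against 13.0. Pyy and Tph1 met in 0 of the 28 Pyy-positive cells (9.81 expected), which allows a share of up to 10.7% with 3 or more UMIs of both (counting error only). Gip and Ghrl met in 0 of the 36 Gip-positive cells (3.99 expected), which allows up to 8.33%. Cck lay between the groups, with 39 cells also positive for Tph1 against 56.1 expected. With the expected number computed separately for the deeper and the shallower gated cells of each library, the ratio was 7.89 for Gcg with Pyy and 1.83 for Tac1 with Tph1. Over 16 alternative settings, the ratio ranged from 5.59 to 9.04 for Gcg with Pyy, from 2.17 to 5.63 for Gcg with Cck and from 1.52 to 2.52 for Tac1 with Tph1. It ranged from 0 to 0.35 for Gcg with Tph1, from 0 to 0.25 for Pyy with Tph1, from 0 to 0.58 for Gip with Ghrl and from 0.47 to 0.90 for Cck with Tph1.

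For 3 of these pairs, the shares were compared between genotypes, first without thinning. Gcg with Pyy was found in 0.671%, 6.06% and 10.6% of gated cells in Fpr2f/f and in 1.79%, 5.43% and 6.15% in Fpr2VKO (exact permutation p = 0.9). Tac1 with Tph1 was found in 38.9%, 40.2% and 24.2% of Fpr2f/f and in 36.6%, 37.0% and 36.9% of Fpr2VKO gated cells (exact permutation p = 1). Cck with Nts was found in 5 cells in all, 3 in Fpr2f/f replicate 2 and 2 in Fpr2VKO replicate 3 (exact permutation p = 1). All 3 adjusted values were 1, and the groups overlapped for each pair. In cells thinned as above, an analysis added after the data were seen, Gcg with Pyy was at 5.25% ± 4.02 and 2.93% ± 0.982, Tac1 with Tph1 at 26.9% ± 9.60 and 27.9% ± 3.48 and Cck with Nts at 0.546% ± 0.946 and 0.546% ± 0.946 (Fpr2f/f and Fpr2VKO, SD, n = 3). The exact permutation p was 0.4, 0.8 and 1, each adjusted value was 1, and the groups overlapped.

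**Figure D2:**
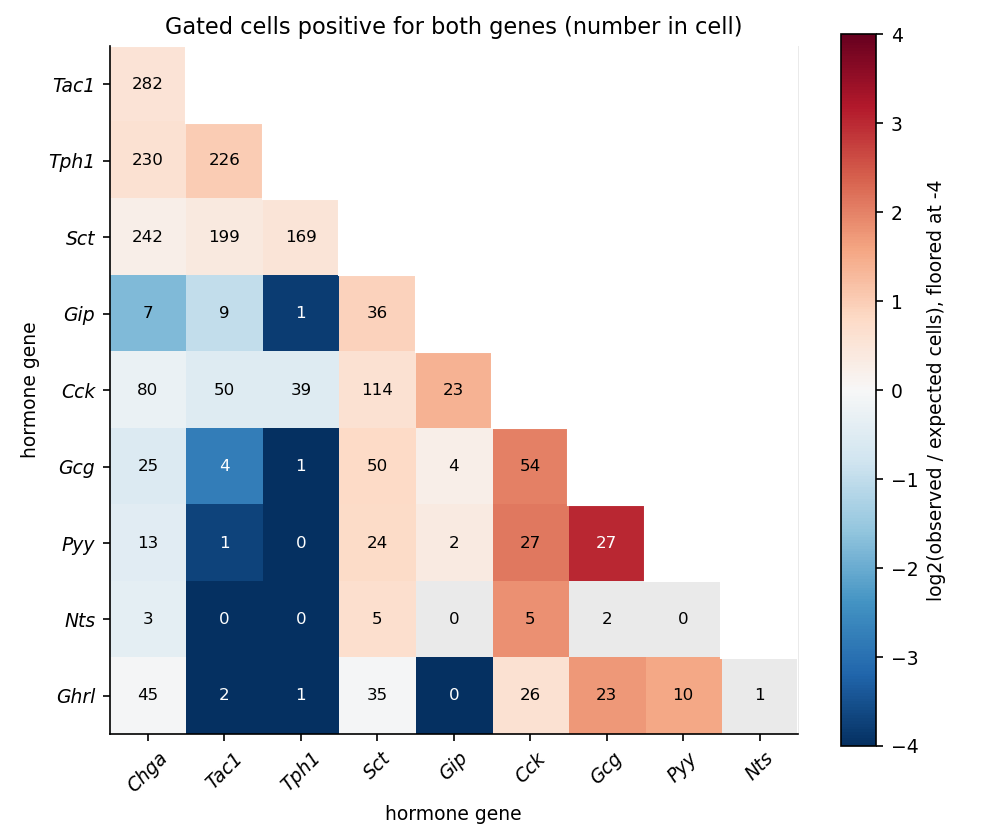
Number of gated cells (of 616) positive for both of 2 hormone genes, printed in each square, with the colour giving log2 of the observed over the expected number (red above, blue below, floored at -4). Grey squares have fewer than 1 cell expected. Gcg, Pyy and Cck form 1 red block, Chga, Tac1 and Tph1 another, and the squares between them are blue.

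Most gated cells were positive for more than 1 hormone. Chga left aside, 146 gated cells were positive for 0 of the 9 other hormones, 105 for 1, 104 for 2, 187 for 3, 60 for 4, 13 for 5 and 1 for 6. The most frequent combination was Chga with Sct, Tac1 and Tph1, in 138 cells (22.4%) and in every library. Chga with Tac1 and Tph1 alone followed, in 47 cells, and Chga alone in 38. Among Tph1-positive cells, Sct was positive in 56.2% to 83.3% per library, against 34.2% to 47.1% of gated cells without a Tph1 UMI, and the share was higher in 6 of 6 libraries. Ghrl, by contrast, was positive in 0 to 2.78% of Tph1-positive cells per library and in 8.82% to 31.4% of those without a Tph1 UMI, lower in 6 of 6 libraries, as were Gcg and Gip.

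Genes whose level followed each hormone across gated cells were ranked by the mean Pearson correlation inside libraries of log-scaled CPM, a description over 616 cells that share library and depth. Chga, Tac1 and Tph1 had neighbours in common. Lmx1a, a transcription factor of enterochromaffin cells, followed Tph1 (mean r = 0.83), Tac1 (0.82) and Chga (0.75), and Rab3c, a vesicle GTPase, followed Chga (0.80) and Tph1 (0.82). The leading gene for Tac1 was Vim, which encodes vimentin (0.85), and Gstt1, a glutathione transferase, was among the leading 3 of all of them.

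Gcg and Cck had a different set. Scg2, the granule protein secretogranin II, led for both (0.75 and 0.70), followed by the transcription factor Etv1 (0.70 and 0.66), and Slc15a1, the intestinal peptide transporter, was near Gcg (0.69) and Pyy (0.67). Cck was also followed by the fatty acid receptor Ffar1 (0.62). Gip went with the cannabinoid receptor Cnr1 (0.74) and the fatty acid binding protein Fabp5 (0.72), and Ghrl with Acsl1, an acyl-CoA synthetase (0.60). The value for Cnr1 rested on few cells. It ran from 0.51 to 1 by library, with a Cnr1 UMI in 29 gated cells and 1 Gip-positive gated cell in Fpr2f/f replicate 3. The values for Slc15a1 also rested on few cells, with a UMI in 50 gated cells. By library they ran from 0.38 to 0.81 with Gcg and from 0.39 to 0.80 with Pyy. Fpr2f/f replicate 1 had 1 Pyy-positive gated cell. The leading genes of Sct, Adgrg4, Cpe and Sphkap, stood near 0.45, and Nts, with gated positive cells in 3 libraries only, had none.

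A minority of gated cells, 108 of 616 (17.5%), was positive for none of the 10 genes. Their share was 17.2% ± 3.55 of gated cells in Fpr2f/f and 18.2% ± 8.03 in Fpr2VKO (SD, n = 3). It was not thinned, and gated cells were deeper in Fpr2VKO (median 12058.5 to 16672.5 UMIs per library against 10066 to 11076). The median of the cells without hormone was 9956 UMIs against 12368 in cells with a hormone. They were the deeper of the 2 in Fpr2f/f replicate 3 and Fpr2VKO replicate 3. Neurog3, which starts the enteroendocrine program, stood at 1166 to 2634 CPM in them and at 180.4 to 516 CPM in hormone-positive gated cells, higher in 6 of 6 libraries, and is not a gate gene. Insm1, which is one, was at 1225 to 2106 against 658 to 993 CPM, also in 6 of 6. Lmx1a, Cpe and Pam, and the gate genes Fev, Isl1 and Pax6, were lower in 6 of 6, with Lmx1a at 0 to 10.3 CPM against 248 to 526 CPM. Chgb, also a gate gene, was at 0 to 1517 CPM against 15329 to 35251 CPM. As Chgb was so low in them, these cells passed the gate largely through its other genes, so the levels of gate genes, and of genes that go with them, follow in part from how the cells were chosen. Lmx1a followed Chga, Tac1 and Tph1 across gated cells, and Cpe followed Sct. These cells were chosen for lacking the hormones, so the lower levels of such genes follow in part from that choice too. Goblet genes were measurable too: Tff3 was at 2549 to 5518 CPM in the cells without hormone and 203 to 2823 CPM in the others, higher in 6 of 6 libraries, and its part in these profiles was not tested.

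Sct was also found outside the gate. There, 614 kept cells were Sct-positive, more than the 314 inside, against 79 for Chga, 78 for Tac1, 28 for Gcg and 8 for Tph1. Kept cells outside the gate were split by fixed marker genes, with a limit set after the data were seen. There were 2846 cells with at least 100 goblet-list UMIs per 10000. Another 847 had at least 100 of the Paneth list and fewer than 100 of the goblet list, so cells rich in both counted as goblet-list cells. The rest were 316 immune cells and 12479 others. Of the 614 Sct-positive cells, 547 were goblet-list cells, 17 Paneth-list cells, 49 others and 1 an immune cell.

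Sct in goblet-list cells was at 107, 93.1 and 116 CPM in Fpr2f/f and 98.6, 64.3 and 80.3 CPM in Fpr2VKO. In the other cells outside the gate it was at 4.53 to 9.61 CPM, and in immune cells at 0 to 10.6 CPM. The goblet-list level was higher in 6 of 6 libraries, by 8.99 to 18.4 times. Tac1 also stood higher in goblet-list cells, at 7.03 to 22.1 against 1.23 to 3.66 CPM, in 6 of 6 libraries. Chga was lower in goblet-list cells in 6 of 6 libraries (1.38 to 4.38 against 5.04 to 10.4 CPM), as were Gcg and Cck.

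Sct-positive cells outside the gate were deep, with a median of 21208 to 35815 UMIs per library against 2770.5 to 5705 in those without a Sct UMI, and these shares were not thinned. Among cells of at least 5000 UMIs, the genes that most separated the Sct-positive from the others were Ccl9, Agr2, Spink4, Muc2, Zg16, Reg4, Tff3 and Mmp7. Agr2, Spink4, Muc2, Zg16 and Tff3 are on the goblet list and Mmp7 on the Paneth list. Lyz1 and Defa17 of the Paneth list were also higher in the Sct-positive cells, in 6 of 6 libraries. Lyz1 was at 12734 to 34301 against 1911 to 4388 CPM, and Defa17 at 12276 to 27856 against 921 to 4372 CPM. Whether these are single cells or pairs of cells captured together was not tested.

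**Figure D3:**
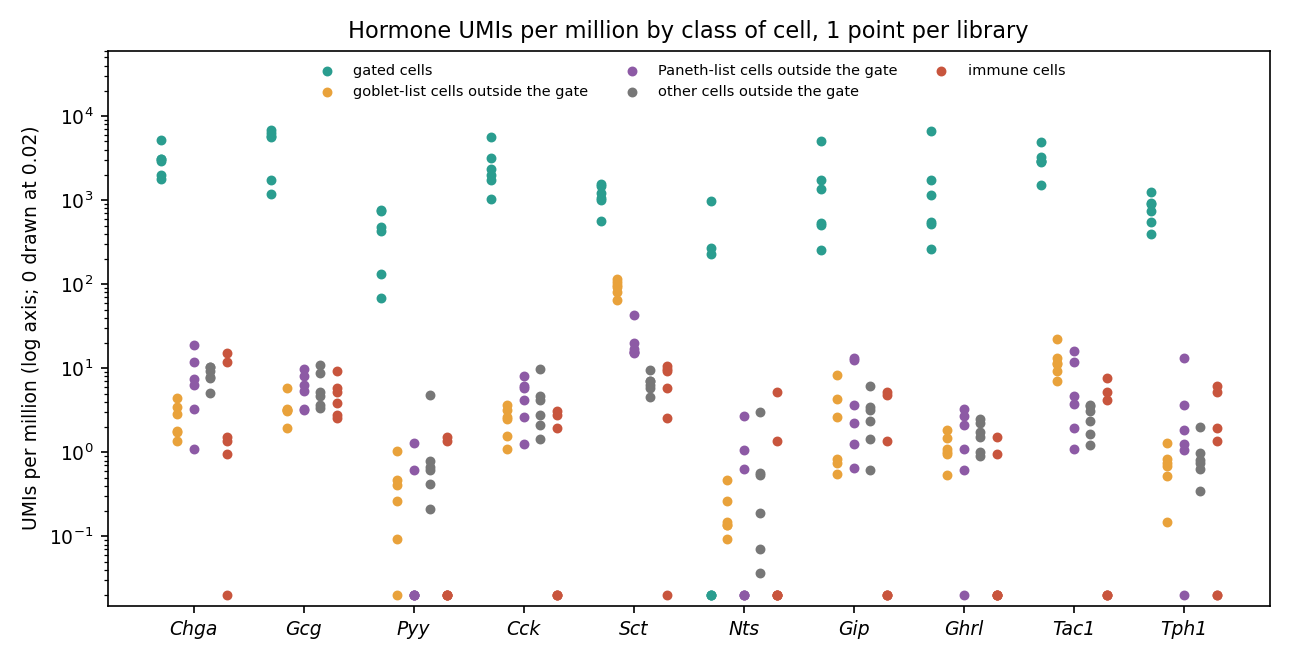
Level of each hormone gene (y axis, CPM, log axis, 0 drawn at 0.02) in 5 classes of kept cells, 1 point per library: gated enteroendocrine cells (green), goblet-list (orange), Paneth-list (violet) and other cells (grey) outside the gate, and immune cells (red). Gated cells are highest for every gene where they hold UMIs, and goblet-list cells stand above the other cells outside the gate for Sct (6 of 6 libraries) and Tac1 (6 of 6).

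The effect of Fpr2 deletion on the hormone genes was then examined in UMIs summed per library. The share of kept cells in the gate was 5.64%, 2.80% and 2.33% in Fpr2f/f and 4.94%, 3.32% and 3.48% in Fpr2VKO. The means, 3.59% ± 1.79 and 3.91% ± 0.892, did not differ beyond the spread (two-sided exact permutation p = 0.8, n = 3 a group). Median UMIs of kept cells were 3033, 4602 and 4612 in Fpr2f/f and 6358, 6728.5 and 6686.5 in Fpr2VKO, without overlap. Cells were not thinned before gating, so genotype and depth cannot be told apart in this share. In sums over all kept cells, fewer hormone cells and less transcript per cell cannot be told apart, and the gated sums remove part of that.

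In all kept cells, Chga was at 195, 180.3 and 55.4 CPM in Fpr2f/f and 153, 82.3 and 62.9 CPM in Fpr2VKO. Tac1 was at 199.8, 167 and 40.4 CPM in Fpr2f/f and 146, 77.5 and 97.4 CPM in Fpr2VKO. Tph1 was at 46.2, 41.8 and 10.3 CPM in Fpr2f/f and 46.4, 24.4 and 18.6 CPM in Fpr2VKO. Fpr2f/f replicate 3, which had the lowest share of gated cells, was the lowest library for all 3 genes and also for Sct and Cck.

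Sct was at 83.3, 83.1 and 42.6 CPM in Fpr2f/f and 76.1, 59.2 and 61.9 CPM in Fpr2VKO, and Cck at 124, 108 and 45.9 CPM against 53.3, 149.6 and 77.1 CPM. Gcg was at 79.8, 214 and 174 CPM in Fpr2f/f and 90.9, 146 and 187 CPM in Fpr2VKO, and Pyy at 7.87, 25.7 and 19.0 CPM against 24.3, 11.2 and 4.74 CPM. The genotypes overlapped for each, and replicate 1 had the lowest Gcg level of either genotype.

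Gip, Ghrl and Nts had the widest ranges of the 10 genes. Gip was at 107, 23.4 and 8.91 CPM in Fpr2f/f and 257, 35.9 and 17.1 CPM in Fpr2VKO, highest in replicate 1 of each. Ghrl was at 71.7, 19.7 and 163 CPM in Fpr2f/f and 27.0, 44.8 and 9.94 CPM in Fpr2VKO. Nts was at 2.49, 32.7 and 7.07 CPM in Fpr2f/f and 0.051, 0.069 and 7.49 CPM in Fpr2VKO, where a few cells set each value. The highest libraries of Ghrl and Nts were those with the single cells described above.

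**Figure D4:**
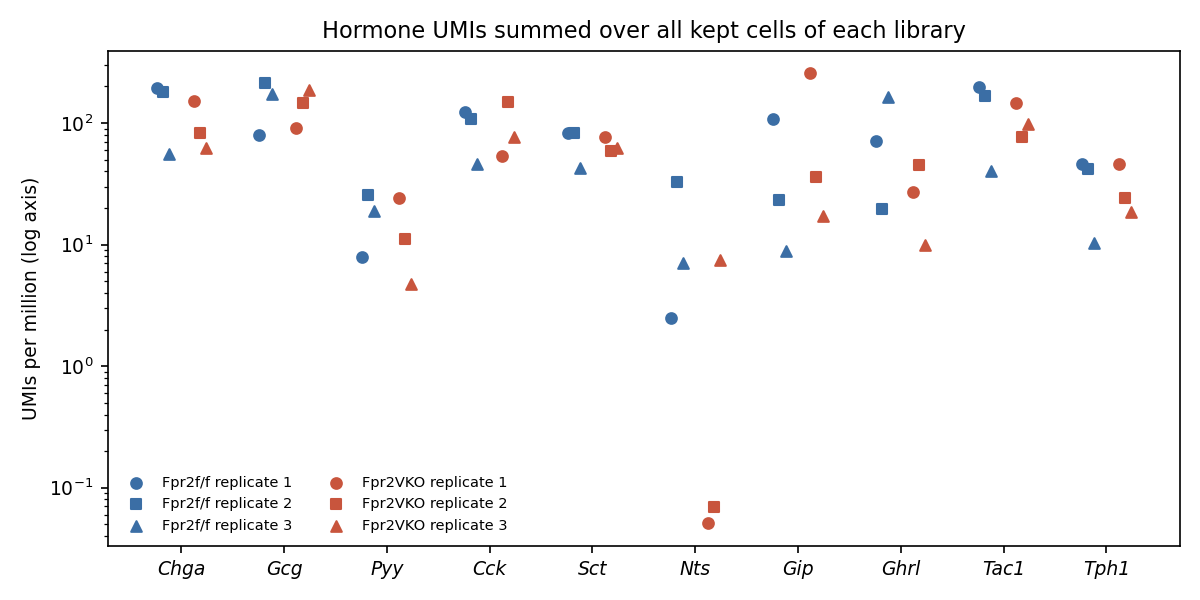
Hormone level (y axis, CPM, log axis) summed over all kept cells of each library, blue for Fpr2f/f and red for Fpr2VKO, with the shape giving the replicate number. Both genotypes overlap for all 10 genes, and Nts, Gip and Ghrl spread over the widest range.

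With edgeR's quasi-likelihood test on the kept sums, 3 of 16917 genes (0.0177%) passed an adjusted p of 0.05, none of them a hormone gene, and at an unadjusted p of 0.05, 8.45% of all genes and 0 of the 10 hormones passed. Groups did not overlap for 13.4% of all genes and for 0 of the hormones. Leaving out 1 library raised the counts of hormones most without Fpr2f/f replicate 3. There, 3 hormones passed an unadjusted p of 0.05 (1209 of 17583 genes) and 3 did not overlap (3830 genes). DESeq2 called 92 genes and 0 hormones. Log2 fold changes (Fpr2VKO over Fpr2f/f, ± SE) ran from -2.59 ± 1.97 for Nts and -1.54 ± 1.00 for Ghrl to 1.21 ± 1.48 for Gip, with adjusted p from 0.744 to 0.974. Leaving out 1 library moved the values to between -7.82 (without Fpr2VKO replicate 3) and -0.91 (without Fpr2f/f replicate 2) for Nts, to between -0.66 (without Fpr2VKO replicate 1) and 2.60 (without Fpr2f/f replicate 1) for Gip, to -0.62 for Ghrl without Fpr2f/f replicate 3, and to between -0.89 (without Fpr2VKO replicate 1) and -0.25 (without Fpr2f/f replicate 2) for Chga. The median of the 10 genes was -0.21, and the median over all genes was 0.002. Sct had the smallest error, at -0.05 ± 0.26.

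In gated cells, 2 of 10007 genes were called (0.02%), again no hormone, and 3.41% of all genes and 0 of the hormones passed an unadjusted p of 0.05. Groups did not overlap for 8.65% of all genes and for 0 of the hormones, and DESeq2 called 8 genes and 0 hormones. Without Fpr2f/f replicate 3, 2 hormones passed an unadjusted p of 0.05 (405 of 10812 genes). Without Fpr2f/f replicate 1, 3 hormones did not overlap (1999 of 9920 genes). The log2 fold changes were -0.42 ± 0.39 for Chga, -0.15 ± 0.39 for Tac1, -0.01 ± 0.45 for Tph1 and 0.25 ± 0.35 for Sct. They were 0.34 ± 0.68 for Cck, -0.16 ± 0.86 for Gcg and -0.60 ± 1.07 for Pyy, which was -1.11 without Fpr2f/f replicate 1 and -0.18 without Fpr2f/f replicate 2. Every adjusted p was 0.999 or above. The median of the 10 genes was -0.15, and the median over all genes was -0.003.

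Gip stood at 1749.6, 539 and 258 CPM of gated cells in Fpr2f/f and 5101, 1362 and 511 CPM in Fpr2VKO, a log2 fold change of 1.49 ± 1.22. Without Fpr2VKO replicate 1 it was 0.12 in gated cells and -0.66 in all kept cells, and without Fpr2f/f replicate 1 it was 2.55 in gated cells. Ghrl stood at 1161, 547 and 6634 CPM in Fpr2f/f and 518, 1725 and 265 CPM in Fpr2VKO, a log2 fold change of -1.76 ± 1.32, and without Fpr2f/f replicate 3 it was -0.04. Nts was at 0, 975 and 273 CPM in Fpr2f/f and 0, 0 and 227 CPM in Fpr2VKO, with a log2 fold change of -2.57 ± 2.55 that was -0.85 without Fpr2f/f replicate 2. Without Fpr2VKO replicate 3 the other Fpr2VKO libraries were all at 0, and the fitted value of -12.24 is no measure of size. For these genes the size of the difference changed with 1 library.

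**Figure D5:**
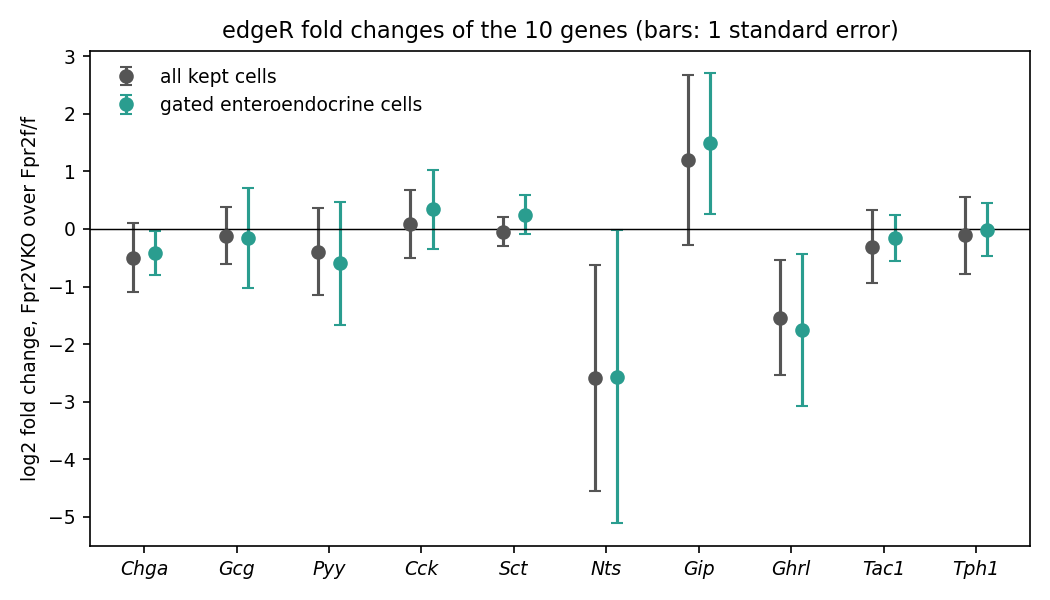
Log2 fold change (y axis, Fpr2VKO over Fpr2f/f) of the 10 hormone genes in all kept cells (grey) and gated cells (green), with bars of 1 standard error from edgeR (n = 3 libraries a group). All estimates are within 2 standard errors of 0, and Nts, Gip and Ghrl have the widest bars.

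Goblet transcripts were present in the gated cells. The goblet list summed to 3855 to 8304 CPM of gated cells in Fpr2f/f and 1084 to 2517 CPM in Fpr2VKO, without overlap. The groups did not overlap for 6 of its 7 genes, beside 8.65% of all genes, and all 7 had the lower mean in Fpr2VKO. None was at 0, and edgeR called 0 of the 7, beside 0.02% of all genes. At an unadjusted p of 0.05 all 7 passed in edgeR, beside 3.41% of all genes. Their log2 fold changes ran from -4.40 ± 0.42 for Zg16 (edgeR adjusted p = 0.0625) to -1.07 ± 0.43 for Fcgbp. Over all kept cells the list overlapped (11674 to 19007 and 11430.0 to 14881 CPM). In an analysis added after the data were seen, without the 39 gated cells richest in goblet genes (5, 20 and 5 in Fpr2f/f, 6, 2 and 1 in Fpr2VKO), the list summed to 1142 to 1509 and 993 to 1730 CPM, where the removal by the same list sets these sums and they are no test of it. The hormone fold changes were nearly as before, -0.45 for Chga, 0.21 for Sct, 1.47 for Gip and -1.92 for Ghrl, and no hormone was called.

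Outside the gate, an analysis also added afterwards, 5 of 16510 genes were called (0.0303%), none a hormone gene. Gcg and Nts, 2 of the 10 hormones, passed an unadjusted p of 0.05, as did 9.09% of all genes, and their groups did not overlap, as for 14.3% of all genes. Gcg was at 9.58, 4.56 and 8.25 CPM in Fpr2f/f and 3.73, 4.19 and 3.03 CPM in Fpr2VKO (log2 fold change -0.95 ± 0.24, adjusted p = 0.289). Immune cells were at 2.56 to 9.22 CPM, a range that held all of these levels but that of Fpr2f/f replicate 1, which was above it. Nts was at or below 2.65 CPM in all libraries (adjusted p = 0.349).

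The genes that make, store and release the hormones gave no call either. Some of them chose the cells: Chgb, Scg2, Scg3, Scg5, Pcsk1 and Pcsk1n of the granule list and Insm1, Fev, Isl1, Pax6, Rfx6 and Nkx2-2 of the transcription factors are gate genes, and Chgb gave 79.6% of the gate UMIs. Their levels in gated cells are held up by the gate and are given as a description. Of the peptide processing and granule genes, 0 of 11 tested in gated cells were called (0.02% of all genes), with 5 higher and 6 lower in Fpr2VKO and a median log2 fold change of -0.01. Pcsk1, the prohormone convertase, was at -0.01 ± 0.19, Cpe, carboxypeptidase E, at 0.03 ± 0.16 and Chgb, chromogranin B, at -0.24 ± 0.28. Vgf, a granule protein, had the lowest value at -0.86 ± 0.32. It alone of the list passed an unadjusted p of 0.05 from edgeR, as did 3.41% of all genes, with overlapping groups.

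Of the transcription factors, 0 of 15 tested were called (0.02% of all genes), with 8 higher and 7 lower and a median of 0.08. The values ran from -0.44 ± 0.26 for Pax4 to 0.31 ± 0.19 for Foxa2, and Neurog3 was at -0.39 ± 0.39. Foxa2 was at 47.8, 48.1 and 52.5 CPM in Fpr2f/f and 67.4, 57.7 and 56.2 CPM in Fpr2VKO, higher in Fpr2VKO without overlap, beside 8.65% of all genes without overlap in either direction (adjusted p = 0.999 from edgeR). Neurod1 could not be tested. Of the nutrient and stimulus receptors, 0 of 6 tested were called (0.02% of all genes), with 4 higher and 2 lower. Ffar2, a receptor for short-chain fatty acids, was at 232, 248 and 212 CPM in Fpr2f/f and 206, 176 and 130.5 CPM in Fpr2VKO, without overlap (log2 fold change -0.43 ± 0.18, adjusted p = 0.999 from edgeR). Ffar2 passed an unadjusted p of 0.05, as did 3.41% of all genes, and lack of overlap was found for 8.65% of all genes. Ffar1 was at 0.18 ± 0.36 and Gpr119 at 0.71 ± 0.50.

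Of the other hormones and amine genes, 0 of 5 tested were called (0.02% of all genes). Iapp, which encodes amylin, was at 20.1, 13.3 and 14.6 CPM in Fpr2f/f and 7.21, 3.60 and 9.03 CPM in Fpr2VKO without overlap, at low counts (log2 fold change -1.26 ± 0.40, adjusted p = 0.999 from edgeR). Iapp also passed an unadjusted p of 0.05 (3.41% of all genes), and lack of overlap was found for 8.65% of all genes. Ddc, which makes serotonin from its precursor, was at -0.05 ± 0.16, and Slc18a1, the amine transporter of granules, at -0.12 ± 0.19. Sst, the precursor of somatostatin, was listed at 731 CPM in Fpr2f/f replicate 3 and at 0 to 18.5 CPM in the other libraries, and did not pass the filter on low counts. Insl5, which encodes insulin-like peptide 5 and did not pass it either, was at 0, 1.16 and 0 CPM in Fpr2f/f and 8.24, 4.51 and 5.02 CPM in Fpr2VKO. That was higher in Fpr2VKO without overlap, from 28 UMIs in all, 16 of them in Fpr2VKO replicate 1. The 8.65% without overlap is of tested genes, and Insl5 was not tested.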

How the data were processed

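The deposited files were UMI counts, not normalized, for 6 libraries, and preceded cell calling (2359296 barcodes each). The libraries were made with the MobiNova-100 microfluidic platform. The authors aligned reads to mm10 and counted with MobiVision. They later removed low-quality cells and doublets by UMI number and DoubletFinder, with limits not stated in the sources used here. Groups and replicate numbers came from the labels, and nothing stated which libraries shared a mouse or a day.

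Counts were summed per library over all kept cells and over gated cells. Genes were tested with edgeR 4.0.16 (R 4.3.3; TMM, filterByExpr with a minimum count of 10, robust quasi-likelihood fit, Benjamini-Hochberg over all genes tested), with DESeq2 1.42.0 as an alternative. The test was tested on simulated data. Shares of cells were compared by exact permutation over libraries, because cells are not replicates. CPM is UMIs per 1000000 UMIs of the cells summed. Named genes were the 10 hormones, the genes of 4 pathway lists, and up to 3 genes per hormone with the highest mean correlation of at least 0.3. Other genes named (goblet, Paneth and immune markers, and those leading in cells outside the gate) were given after their values were seen. The members and all lists were chosen with earlier results of these data known. Intervals cover counting error only. Alternatives were other mitochondrial, UMI, gate and positivity limits, all barcodes, no thinning, no filter, DESeq2 size factors, the replicate block and leaving out each library.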

Additional observations from a re-analysis of the deposited data

Results flagged for a closer look

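Hormone transcripts were also found in barcodes outside the cells compared. Barcodes with fewer than 100 UMIs, too shallow to be cells, held 32362 UMIs of the 10 hormone genes, a signal outside the kept and gated cells. They entered only the alternative that summed all barcodes. Per library, these barcodes had Gcg at 55.5 to 116 CPM, Tac1 at 26.2 to 73.8 CPM, Chga at 24.1 to 69.0 CPM and Sct at 38.0 to 64.6 CPM. In immune cells the same genes were at 2.56 to 9.22, 0 to 7.73, 0 to 15.4 and 0 to 10.6 CPM. The source of the UMIs in shallow barcodes was not tested.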

How the results depend on the processing

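No hormone was called in all kept cells under any alternative, and in gated cells only Gip, under the replicate block. Nothing stated that the replicate numbers pair the libraries. Same-numbered libraries correlated at -0.10, -0.05 and 0.20 in kept and at -0.05, 0.13 and 0.19 in gated cells. They were the best match for replicate 3 in kept cells and for replicates 2 and 3 in gated cells, and not for the others. Blocked on them, 1 hormone was called in gated cells, Gip (log2 fold change 1.30, edgeR adjusted p = 0.000772), and no other hormone call changed. The values below have the opposite sign to those reported, none passed its test, and the cause was not tested. For shares, the exact permutation test could not pass 0.05, as 0.1 is the smallest p that 3 against 3 libraries allow. Shares are differences in percentage points, Fpr2VKO minus Fpr2f/f. With a mitochondrial limit of 10%, log2 fold changes in kept cells were 0.43 for Gcg, 0.60 for Pyy, 0.51 for Sct, 0.19 for Tac1 and 0.38 for Tph1, and log2 fold changes in gated cells were 0.35 for Gcg, 0.24 for Pyy, 0.16 for Tac1 and 0.27 for Tph1, and share differences were 5.23 for Gcg, 4.23 for Pyy, 0.0704 for Ghrl, -0.233 for Tac1, 2.35 for Gcg with Pyy and -0.794 for Cck with Nts. Without the 5% of cells with most UMIs, log2 fold changes in kept cells were -0.077 for Cck, and log2 fold changes in gated cells were 0.043 for Tph1. With the replicate block, log2 fold changes in kept cells were 0.016 for Sct and 0.048 for Tph1, and log2 fold changes in gated cells were 0.046 for Gcg, 0.0051 for Tac1 and 0.11 for Tph1. Outside the gate (added afterwards), log2 fold changes in kept cells were -0.86 for Gip and 0.28 for Tph1. Summed over all barcodes, log2 fold changes were 0.0019 for Tph1. With a limit of 40%, log2 fold changes in gated cells were 0.0028 for Tph1, and share differences were -3.35 for Cck, -1.33 for Tac1 with Tph1 and -0.580 for Cck with Nts, and the difference in gated share was -0.300. With the gate at 20 per 10000, log2 fold changes in gated cells were 0.041 for Tph1, and share differences were -0.248 for Cck with Nts. With DESeq2, log2 fold changes in gated cells were 0.00080 for Tph1. In cells of at least 2000 UMIs, share differences were -1.64 for Chga, 1.47 for Gcg, -1.05 for Tac1 and -1.61 for Tph1, and the difference in gated share was -0.0509. With positivity at 1 UMI, share differences were -3.72 for Chga, -0.491 for Cck, -0.465 for Sct and -0.899 for Tac1. At 10 UMIs, share differences were -4.48 for Chga, 0.787 for Ghrl and -0.341 for Tac1. Without thinning, share differences were -2.35 for Cck. Without the gated cells rich in goblet genes (added afterwards), share differences were -0.0857 for Tph1. With thinned cells (added afterwards), share differences were -0.000553 for Cck with Nts. Leaving out 1 library at a time left every hormone uncalled and gave log2 fold changes on both sides of 0, which ran -0.44 to 0.24 for Gcg, -1.06 to 0.050 for Pyy, -0.50 to 0.39 for Cck, -0.30 to 0.15 for Sct, -0.66 to 2.60 for Gip, -0.74 to 0.0082 for Tac1 and -0.53 to 0.17 for Tph1 in kept cells and -0.69 to 0.042 for Chga, -0.61 to 0.23 for Gcg, -0.42 to 0.75 for Cck, -0.031 to 0.69 for Sct, -0.48 to 0.31 for Tac1 and -0.32 to 0.48 for Tph1 in gated cells. Share differences ran -4.77 to 5.06 for Chga, -3.74 to 1.53 for Gcg, -2.05 to 7.33 for Sct, -0.635 to 1.79 for Gip, -4.19 to 0.175 for Ghrl, -5.81 to 5.14 for Tac1, -3.997 to 5.73 for Tph1, -3.88 to 1.09 for Gcg with Pyy, -2.71 to 5.24 for Tac1 with Tph1 and -0.758 to 1.03 for Cck with Nts, and the difference in gated share -0.302 to 1.35. Over all genes, calls in kept cells were 3 as reported, 6 under the block, 89 with no filter on low counts, 92 with DESeq2 and 40 without Fpr2f/f replicate 1. Of the ratios of observed to expected cells for pairs of hormones, 52 under the alternatives moved by more than the SD between libraries and 668 did not. With the 10% limit Nts was not tested. Nts and Pyy rested on the fewest positive gated cells, 6 and 28.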
